A study of Danio rerio with 6 samples.

Results

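Matrix metalloproteinases (MMPs), ADAMs, ADAMTS proteases and their tissue inhibitors (TIMPs) were followed in cells sorted by a macrophage reporter from adult zebrafish skin. Members were taken by gene name: every gene whose name began with mmp, adam or timp and a number, or with adamts, was matched, and those with at least 1 CPM (a read count scaled to library size) in at least 2 libraries were kept. The rule matched 68 of the 32520 genes in the table, and 58 passed the filter: 19 MMPs, 16 ADAMs, 14 ADAMTS proteases, 4 ADAMTS-like genes and 5 TIMPs. The 10 names that did not pass were adamts13, adamts16, adamts18, adamtsl2, mmp16b, mmp17a, mmp19, mmp20b, mmp21 and mmp25a, none of which exceeded 2.2 CPM in any library.

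RNA was sequenced from GFP+ cells of untreated fish at 3 months of age, in 3 groups of 2 libraries each. All fish carried an mpeg1 reporter, tg(mpeg1-EGFP), which labels macrophages and related cells, together with tg(Kdrl:Cre) and tg(act2b:loxP-STOP-loxP-DsRedexpress), so that cells descending from kdrl-expressing endothelial or blood-forming cells turn on DsRed permanently. The groups were GFP+DsRed- cells of csf1rDM fish, which carry csf1raj4e1/j4e1 and csf1rbsa1503/csf1rbsa1503 and are thus mutant for both csf1 receptor genes, GFP+DsRed+ cells of control fish with wild-type csf1r genes, and GFP+DsRed- cells of the same control genotype. All cells were GFP+, and the control groups are called DsRed+ and DsRed- controls hereafter. The paper identifies the GFP+DsRed- skin cells as metaphocytes, macrophage-like cells of non-hematopoietic and likely ectodermal origin. DsRed reports only whether an ancestor expressed kdrl, so a GFP+DsRed- sort can also hold cells of blood descent in which recombination failed or that arose from kdrl-negative precursors. Whether cells of several fish were pooled in a library is not stated in the sources used here, and p-values therefore measure only the spread between these libraries.

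MMPs are zinc-dependent proteases, secreted or anchored in the membrane, that cut collagens and other matrix proteins. ADAMs are membrane proteins, many of which release the outer parts of receptors, ligands and adhesion molecules from cell surfaces, whereas ADAMTS proteases are secreted and process procollagens and proteoglycans. TIMPs bind and block MMPs and some ADAMs and ADAMTS proteases. Macrophages, fibroblasts and keratinocytes are all known sources of these genes in skin, where they take part in matrix turnover and wound repair.

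The reads behind the deposited values were estimated at 5072633 and 4024256 in the csf1rDM libraries, 10069877 and 14816042 in the DsRed+ control libraries and 11363542 and 10448033 in the DsRed- control libraries, so that the mutant libraries were the shallowest. Pairs of values stand for replicates 2 and 3 of csf1rDM, 1 and 3 of the DsRed+ control and 1 and 2 of the DsRed- control, in that order. A value of 3 reads corresponded to 0.202 to 0.745 CPM. All 10 tested macrophage markers rose in DsRed+ control cells over DsRed- control cells. Their summed level was 136 and 118 CPM in csf1rDM libraries, 4548 and 4778 CPM in DsRed+ control libraries and 276 and 162 CPM in DsRed- control libraries. Of these sums csf1ra, which is mutated in csf1rDM fish, gave 1.40 and 2.25 CPM in csf1rDM and 102 and 86.9 CPM in DsRed- control libraries. It was the only one of these markers called between the 2 groups. The sum of xanthophore (yellow pigment cell) markers was also lower in csf1rDM libraries, at 4.6 and 4.5 CPM against 561 and 474 CPM. Whether the csf1ra difference came from the mutation or from a different mix of cells was not tested. Both csf1rb, also mutated, and mfap4 were at 0 in the csf1rDM libraries, but did not exceed 0.80 CPM in DsRed- control libraries. RNA of keratinocyte markers was found in every group: the 8 markers summed to 16226 and 13245 CPM in csf1rDM libraries, 9863 and 6023 CPM in DsRed+ control libraries and 14022 and 19088 CPM in DsRed- control libraries. Whether this RNA came from keratinocytes or from the sorted cells themselves was not tested.

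Together the 58 members took 1432 and 1745 CPM in csf1rDM libraries, 2154 and 2012 CPM in DsRed+ control libraries and 1819 and 1540 CPM in DsRed- control libraries, and these totals did not separate the csf1rDM libraries from the DsRed- control ones. The 16 ADAMs summed to 697 and 851 CPM in csf1rDM libraries, 1185 and 1223 CPM in DsRed+ control libraries and 756 and 726 CPM in DsRed- control libraries, with both DsRed+ control libraries above the rest. The 14 ADAMTS proteases instead were lowest in both DsRed+ control libraries, with 132 and 208 CPM in csf1rDM libraries, 102 and 90.5 CPM in DsRed+ control libraries and 249 and 206 CPM in DsRed- control libraries. The 4 ADAMTS-like genes summed to 47.2 and 70.4 CPM in csf1rDM libraries, 234 and 215 CPM in DsRed+ control libraries and 65.2 and 46.5 CPM in DsRed- control libraries. ADAMTSL4 made up 33.3% of this sum in csf1rDM, 93% in DsRed+ control and 42.3% in DsRed- control libraries.

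**Figure D1:**
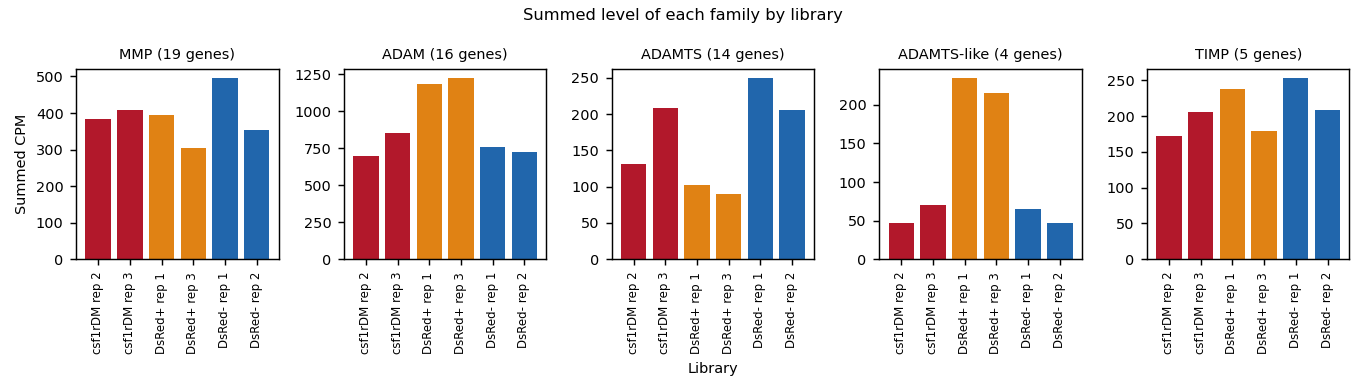
Summed level of each family (y axis, CPM, 1 panel per family, bars starting at 0) in the 6 libraries (x axis, csf1rDM GFP+DsRed-, control GFP+DsRed+ and control GFP+DsRed-). The ADAM and ADAMTS-like sums are highest in both GFP+DsRed+ libraries, where the ADAMTS sum is lowest, at 102 and 90.5 CPM.

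In DsRed+ control cells compared with DsRed- control cells, members of every family but the ADAMTS proteases were found among the higher genes, and members of every family but the ADAMTS-like genes among the lower ones. The largest increases were of ADAMTSL4, mmp25b, adam9, timp4.2, mmp24, timp4.3, adam11 and timp2b, with log2 fold changes of 2.17 to 3.32. The decreases were smaller and included mmp2, adam8b, adamts2, adamts3 and timp2a. In bulk libraries fewer cells of a type and less RNA per cell cannot be told apart. Of the 58 members 17 passed an adjusted p of 0.05 (29.3%), against 25.4% of all 20382 genes tested. Among these, 10 rose (17.2%, against 14.6% of all genes) and 7 fell (12.1%, against 10.8%), so that the family's shares lay near those of all genes. Without composition normalization, which moved the median log2 fold change of all genes in this comparison by 0.18, 8 members were higher and 12 lower. Beyond a log2 fold change of 2 there were 8 members (13.8%, against 6.02% of all genes), all of them higher (4.98% of all genes), and 0 lower (1.04% of all genes), by limma 0 also at an unadjusted p under 0.05. Of these 8, adam11 reached 1 CPM in DsRed+ control libraries only, and mmp25b outside them only in DsRed- control replicate 2, at 1.15 CPM. Both entered the member list through the DsRed+ control libraries. Their calls are thus no independent results, and the counts and shares that include them are given as a description. The median log2 fold change was -0.33 over the members and -0.03 over all genes tested. Leaving out any 1 of the 4 libraries of this comparison gave lower counts at the adjusted threshold, both among the members and over all genes. Each of the 7 decreases lost its call in at least 2 alternative analyses.

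Within DsRed- cells the share of members that differed by genotype lay near that of all genes. Both genes named mmp13a, a collagenase, and timp2b and adam8b rose in csf1rDM cells over DsRed- control cells, and no member passed the test in the other direction. Of these, mmp13a (ENSDARG00000012395) reached 1 CPM in csf1rDM libraries only and entered the member list through them, so that its difference is no independent result and the count and share below are given as a description. These 4 calls were 6.9% of the members, against 6.51% of all genes tested (higher, 3.24% of all genes; lower, 3.27%). By limma at an unadjusted p under 0.05, 5 members were higher and 9 lower. The share of all genes at this unadjusted threshold was not computed, so these counts do not show a shift of the family. Without composition normalization, which moved the median of all genes by 0.129 on the log2 scale, 3 members passed the adjusted threshold as higher and 2 as lower. Only mmp13a (ENSDARG00000114451) lay beyond a log2 fold change of 2, a class that held 1.56% of all genes (0.550% higher and 1.01% lower). The median log2 fold change was -0.11 over the members and -0.05 over all genes. The count of 4 changed with each library left out, to fewer members in every case but csf1rDM replicate 2. Over all genes the count moved in the same direction each time, so these changes are not particular to the members.

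Between csf1rDM cells and DsRed+ control cells, which differ both in genotype and in DsRed, 12 members were higher and 13 lower. These 25 calls were 43.1% of the members, against 32.4% of all genes tested (higher, 20.7% of members and 14.1% of all genes; lower, 22.4% and 18.3%). Among them, mmp13a (ENSDARG00000012395) reached 1 CPM in csf1rDM libraries only, and adam11 and adam19b in DsRed+ control libraries only. Outside the DsRed+ control libraries mmp25b reached 1 CPM only in DsRed- control replicate 2, at 1.15 CPM. These genes entered the member list through the group in which they are higher. Their calls are thus no independent results, and the counts and shares are given as a description. The lower genes included 6 of 16 ADAMs, and the higher ones included 4 ADAMTS proteases, 3 ADAMTS-like genes and both mmp13a genes. Beyond a log2 fold change of 2 lay 12 members, 4 higher and 8 lower, against 8.09% of all genes (2.44% higher and 5.64% lower). The median log2 fold change was 0.03 over the members and -0.07 over all genes. Without either DsRed+ control library the count at the adjusted threshold was lower, both among the members and over all genes. Without DsRed+ control replicate 3 the same held for the count beyond the fold threshold. The 3 comparisons share libraries, so their values for one gene are not independent of each other.

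**Figure D2:**
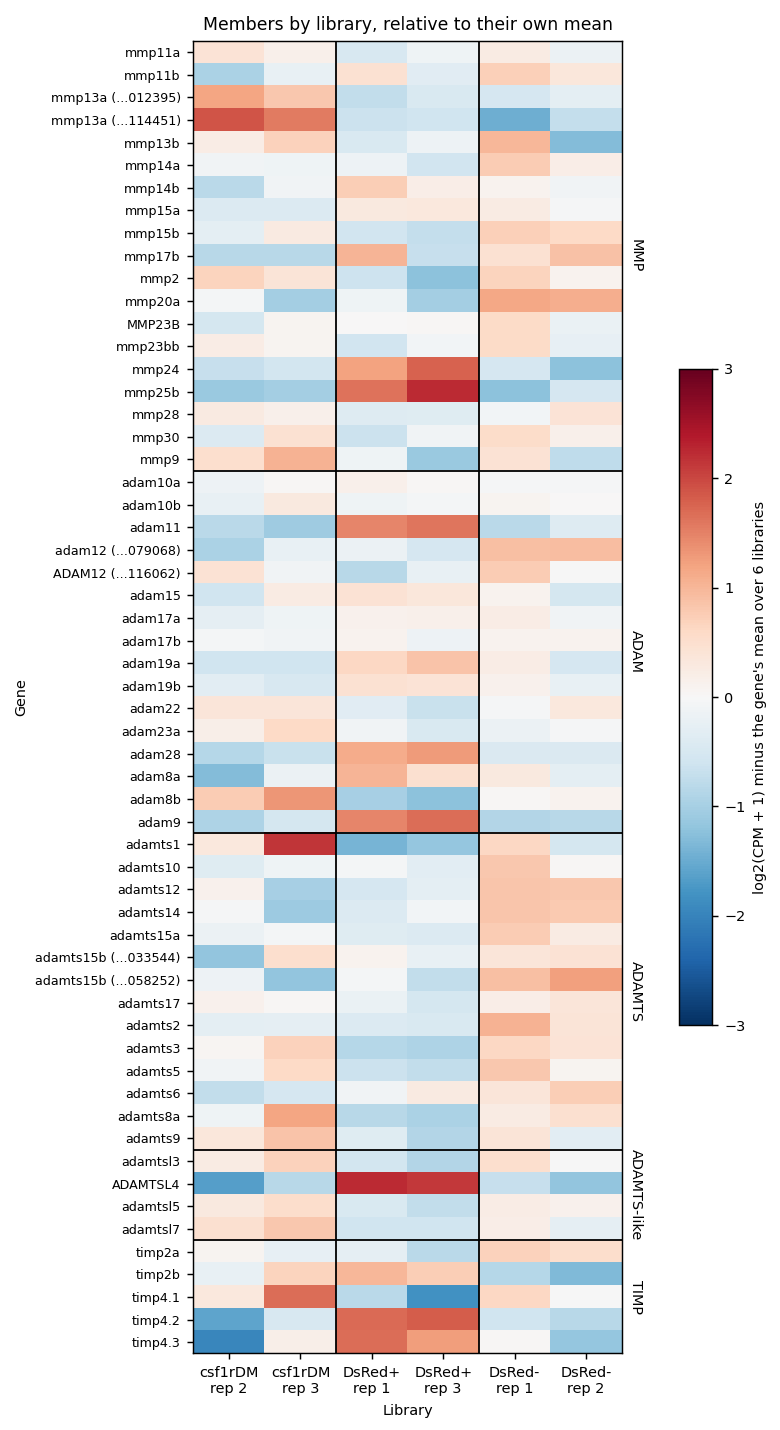
All 58 members (y axis, ordered by family) in each of the 6 libraries (x axis), coloured by log2(CPM + 1) minus the gene's own mean over the libraries. Red genes in the GFP+DsRed+ columns include mmp24, mmp25b, adam9, adam11, adam28, ADAMTSL4, timp4.2 and timp4.3, and both mmp13a genes are red in the csf1rDM columns.

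Among the collagenases, the gene mmp13a (ENSDARG00000114451) had 17.3 and 13.7 CPM in csf1rDM libraries, 2.20 and 2.30 CPM in DsRed+ control libraries and 0.799 and 2.05 CPM in DsRed- control libraries. Both csf1rDM libraries lay above all 4 control libraries. It rose in csf1rDM cells by 2.90 ± 0.33 (log2 fold change ± SE on the log2(CPM + 1) scale, adjusted p = 0.00727) over DsRed- control cells and by 2.30 ± 0.33 over DsRed+ control cells (adjusted p = 0.00248). A second gene of the same name, ENSDARG00000012395, had 3.20 and 2.25 CPM in csf1rDM libraries, 0.10 and 0.35 CPM in DsRed+ control libraries and 0.30 and 0.50 CPM in DsRed- control libraries, or 16 and 9 reads in csf1rDM libraries against 1 to 5 in each control library. Its csf1rDM values again exceeded every control value, with a level at least 10.9-fold higher than in DsRed+ control cells, where the mean did not exceed that of 3 reads. It passed the test over DsRed- control cells (1.46 ± 0.27, adjusted p = 0.0317), a call lost in 8 of the 10 alternative analyses that gave a value, and it entered the member list only through its csf1rDM values. Reads may be shared between genes of the same name, so the copies were also added together: mmp13a summed to 18.2 ± 3.25 CPM in csf1rDM, 2.47 ± 0.247 CPM in DsRed+ control and 1.82 ± 1.02 CPM in DsRed- control libraries (mean ± SD, n = 2 each).

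Because neutrophils also make a collagenase in mammals, neutrophil markers were read beside mmp13a. The 8 markers summed to 157 and 299 CPM in csf1rDM libraries, 444 and 355 CPM in DsRed+ control libraries, where csf3r gave 353 and 296 CPM, and 97.6 and 111 CPM in DsRed- control libraries. Myeloperoxidase (mpx) was at 1.40 CPM in csf1rDM replicate 2 and 30.3 CPM in csf1rDM replicate 3, and at 0.50 to 2.5 CPM in the control libraries, while lyz did not exceed 0.849 CPM in any library and was at 0 in csf1rDM replicate 3. Like mmp13a, npsn, scpp8 and nccrp1 were higher in both csf1rDM libraries than in every control library. In contrast, lect2l overlapped between the groups, with 2.0 and 1.25 CPM in csf1rDM, 1.40 and 1.90 CPM in DsRed+ control and 2.15 and 0.40 CPM in DsRed- control libraries. The marker cpa5 did not exceed 0.50 CPM in any library. The gene npsn was at 20.3 and 12.7 CPM in csf1rDM libraries, 3.90 and 1.499 CPM in DsRed+ control libraries and 10.3 and 12.0 CPM in DsRed- control libraries. The gene scpp8 was at 12.6 and 28.6 CPM in csf1rDM libraries, 4.90 and 1.35 CPM in DsRed+ control libraries and 4.05 and 3.30 CPM in DsRed- control libraries, and nccrp1 at 119 and 224 CPM in csf1rDM libraries, 77.9 and 52.7 CPM in DsRed+ control libraries and 74.0 and 91.5 CPM in DsRed- control libraries. None of the 6 tested markers passed the test between csf1rDM and DsRed- control cells, the nearest being scpp8 (2.23 ± 0.53, adjusted p = 0.0535), and 3 were higher and 1 lower in csf1rDM than in DsRed+ control cells. The part of neutrophils in the mmp13a result was not tested.

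The gelatinases gave mixed results. The gene mmp2, which cuts denatured collagen and basement membrane, had 154 and 126 CPM in csf1rDM libraries, 62.0 and 40.2 CPM in DsRed+ control libraries and 154 and 104 CPM in DsRed- control libraries. Both DsRed+ control libraries lay below all others, and mmp2 fell by 1.11 ± 0.27 on the log2 scale in DsRed+ control cells over DsRed- control cells (adjusted p = 0.0238) and was higher in csf1rDM than in DsRed+ control cells by 1.40 ± 0.27 (adjusted p = 0.00792). Without DsRed- control replicate 1 or DsRed+ control replicate 3 the decrease in DsRed+ control cells no longer passed the test, with adjusted p of up to 0.154. The other gelatinase, mmp9, which is induced in injured tissue, had 41.2 and 60.9 CPM in csf1rDM libraries, 26.4 and 12.8 CPM in DsRed+ control libraries and 39.7 and 16.7 CPM in DsRed- control libraries. The csf1rDM values were the highest, but the control libraries of each kind were far apart and mmp9 passed no test (csf1rDM over DsRed+ control, 1.33 ± 0.46, adjusted p = 0.0637).

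Membrane-type MMPs did not move together. The gene mmp24, which encodes a transmembrane MMP, had 5.15 and 5.75 CPM in csf1rDM libraries, 21.6 and 32.5 CPM in DsRed+ control libraries and 6.00 and 3.20 CPM in DsRed- control libraries. It rose 5.89-fold in DsRed+ control cells over DsRed- control cells (2.54 ± 0.31 on the log2 scale, adjusted p = 0.00153), and the groups did not overlap. The lipid-anchored mmp25b, whose human counterpart is known from neutrophils, had 0.40 and 0.50 CPM in csf1rDM libraries, or 2 reads in each, 8.45 and 13.3 CPM in DsRed+ control libraries and 0.30 and 1.15 CPM in DsRed- control libraries. It rose by 2.92 ± 0.34 in DsRed+ control cells over DsRed- control cells (adjusted p = 0.00135) and in csf1rDM cells its level was at least 16.3-fold below that in DsRed+ control cells. It entered the member list only through its DsRed+ control values, so these calls are no independent results. In contrast, mmp14a, a major activator of mmp2 at the cell surface, had 68.2 and 67.1 CPM in csf1rDM libraries, 66.2 and 48.9 CPM in DsRed+ control libraries and 124 and 84.0 CPM in DsRed- control libraries, and passed no test. Its paralog mmp14b had 56.6 and 92.2 CPM in csf1rDM libraries, 167 and 115 CPM in DsRed+ control libraries and 107 and 92.0 CPM in DsRed- control libraries. It passed the test only between csf1rDM and DsRed+ control cells (log2 fold change -0.997 ± 0.28, adjusted p = 0.0318, lost in 7 of 13 alternative analyses). Of the related mmp15 genes, mmp15a was lower in csf1rDM than in DsRed+ control cells (log2 fold change -0.78, adjusted p = 0.0224, lost in 4 of 13 alternative analyses) and mmp15b lower in DsRed+ control than in DsRed- control cells (-1.18, adjusted p = 0.024). The gene mmp20a, whose mammalian counterpart processes tooth enamel, was lower in DsRed+ control than in DsRed- control cells (-1.53, adjusted p = 0.0428).

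**Figure D3:**
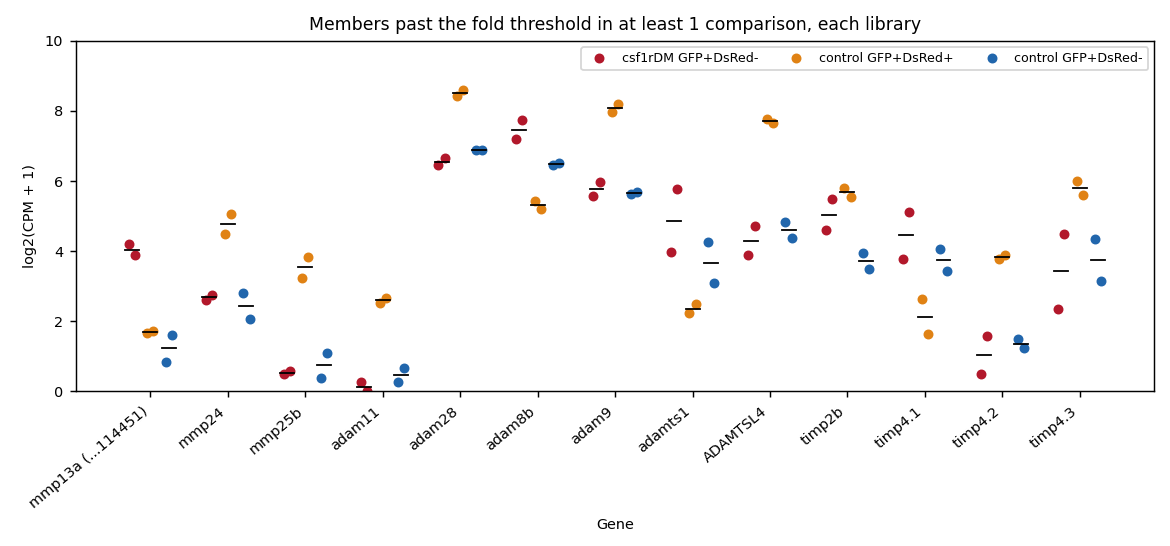
The 13 members beyond a log2 fold change of 2 in at least 1 comparison (x axis), with the log2(CPM + 1) of each library as a point (y axis, colours for the 3 groups) and group means as black lines. The GFP+DsRed+ points stand above all others for mmp24, mmp25b, adam9, adam11, adam28, ADAMTSL4, timp4.2 and timp4.3 and below all others for adam8b, adamts1 and timp4.1.

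The broadly acting sheddases passed no test in any comparison. The gene adam10a, which releases Notch receptors and many other surface proteins, had 250 and 283 CPM in csf1rDM libraries, 310 and 285 CPM in DsRed+ control libraries and 272 and 272 CPM in DsRed- control libraries. Likewise adam17a, the counterpart of the enzyme that releases tumour necrosis factor in mammals, had 88.5 and 96.7 CPM in csf1rDM libraries, 115 and 119 CPM in DsRed+ control libraries and 124 and 99.5 CPM in DsRed- control libraries. The smallest adjusted p of either gene was 0.0829 for adam17a between csf1rDM and DsRed+ control cells (-0.40 ± 0.15).

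Other ADAMs separated DsRed+ control cells from both DsRed- groups. The metalloprotease gene adam9 had 46.5 and 61.9 CPM in csf1rDM libraries, 249 and 290 CPM in DsRed+ control libraries and 48.5 and 50.2 CPM in DsRed- control libraries. This was a 5.46-fold increase in DsRed+ control cells over DsRed- control cells (log2 fold change 2.63 ± 0.18, adjusted p = 0.000157), and csf1rDM cells were lower than DsRed+ control cells by a similar amount (-2.37 ± 0.18, adjusted p = 0.000197). The gene adam28, known in humans from lymphocytes, had 86.5 and 99.9 CPM in csf1rDM libraries, 345 and 386 CPM in DsRed+ control libraries and 116 and 116 CPM in DsRed- control libraries. It rose 3.15-fold in DsRed+ control cells over DsRed- control cells (1.86 ± 0.15, adjusted p = 0.000263) and was 3.92-fold lower in csf1rDM than in DsRed+ control cells. The gene adam11, whose mammalian product lacks a working protease site, had 0.20 and 0 CPM in csf1rDM libraries, 4.80 and 5.35 CPM in DsRed+ control libraries and 0.20 and 0.60 CPM in DsRed- control libraries. It rose by 2.24 ± 0.27 in DsRed+ control cells over DsRed- control cells (adjusted p = 0.00154) and in csf1rDM cells its level was at least 7.59-fold below that in DsRed+ control cells. Like adam19b, adam11 reached 1 CPM in DsRed+ control libraries only and so entered the member list through them. The meltrin gene adam19a was higher in DsRed+ control than in DsRed- control cells by 1.07 ± 0.28 (adjusted p = 0.0312, lost in 6 of 13 alternative analyses) and lower in csf1rDM than in DsRed+ control cells, as was adam19b (log2 fold change -0.88, adjusted p = 0.0351, lost in 6 of 9 alternative analyses).

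The adam8 paralogs went in different directions. The gene adam8b, whose mammalian counterpart is made by granulocytes and monocytes, had 145 and 214 CPM in csf1rDM libraries, 42.0 and 35.8 CPM in DsRed+ control libraries and 86.3 and 91.2 CPM in DsRed- control libraries. The groups did not overlap, with csf1rDM highest and DsRed+ control lowest. It was higher in csf1rDM than in DsRed+ control cells by 2.09 ± 0.22 (adjusted p = 0.000656), lower in DsRed+ control than in DsRed- control cells (-0.96 ± 0.22, adjusted p = 0.019) and higher in csf1rDM than in DsRed- control cells by 1.13 ± 0.22 (adjusted p = 0.0336, lost in 7 of 13 alternative analyses). Its paralog adam8a had 4.55 and 10.9 CPM in csf1rDM libraries and 26.5 and 17.8 CPM in DsRed+ control libraries and was lower in csf1rDM cells (-1.55 on the log2 scale, adjusted p = 0.0265, lost in 4 of 13 alternative analyses).

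The leukocyte and macrophage lists moved with the genes that were higher in DsRed+ control cells. All 5 leukocyte markers rose in DsRed+ control cells over DsRed- control cells, with sums of 1790 and 1646 CPM in csf1rDM libraries, 6447 and 6849 CPM in DsRed+ control libraries and 1689 and 1349 CPM in DsRed- control libraries. The part of these markers in the results for single members was not tested.

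Of the 14 ADAMTS proteases, 2 were lower (14.3%, near the 10.8% of all genes) and 0 higher in DsRed+ control cells over DsRed- control cells (limma, 7 lower and 0 higher at an unadjusted p under 0.05), and the median log2 fold change of the 14 was -0.92. For the unadjusted threshold no share of all genes was computed. The procollagen-processing gene adamts2 had 31.5 and 32.1 CPM in csf1rDM libraries, 28.6 and 27.9 CPM in DsRed+ control libraries and 80.7 and 50.7 CPM in DsRed- control libraries. It fell by 0.94 ± 0.22 on the log2 scale in DsRed+ control cells (adjusted p = 0.0193), while the difference of csf1rDM from DsRed- control cells was of like size but did not pass the test (-0.84 ± 0.22, adjusted p = 0.0654). The related adamts3 was lower in DsRed+ control than in DsRed- control cells (-1.27, adjusted p = 0.0206) and higher in csf1rDM than in DsRed+ control cells (1.25, adjusted p = 0.018, lost in 5 of 12 alternative analyses).

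Of the proteoglycan-cutting members, adamts1, adamts8a and adamts9 were higher in csf1rDM than in DsRed+ control cells. The gene adamts1 had 14.6 and 54.2 CPM in csf1rDM libraries, 3.70 and 4.60 CPM in DsRed+ control libraries and 18.0 and 7.60 CPM in DsRed- control libraries. It was higher in csf1rDM than in DsRed+ control cells by 2.47 ± 0.60 (adjusted p = 0.0195), but the csf1rDM libraries differed several-fold from each other and overlapped with DsRed- control libraries. Without csf1rDM replicate 3, or without either DsRed+ control library, the call was lost, with adjusted p of up to 0.0737. Of the same group, adamts8a was higher by 1.35 (adjusted p = 0.0402) and adamts9 by 1.16 (adjusted p = 0.037), calls that were lost in 8 and 5 of 13 alternative analyses. The log2 fold change of adamts8a was as low as 0.70 with csf1rDM replicate 3 left out. None of the 14 ADAMTS proteases passed the test between csf1rDM and DsRed- control cells (limma, 0 higher and 5 lower at an unadjusted p under 0.05, a threshold at which no share of all genes was computed).

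The ADAMTS-like proteins share the ancillary domains of ADAMTS proteases but have no protease domain. ADAMTSL4, known in mammals as a partner of fibrillin microfibrils, had 13.8 and 25.3 CPM in csf1rDM libraries, 217 and 201 CPM in DsRed+ control libraries and 27.6 and 19.6 CPM in DsRed- control libraries. The DsRed+ control values stood far above the other 4, an 8.85-fold increase over DsRed- control cells (log2 fold change 3.32 ± 0.29, adjusted p = 0.000344) and a level 10.7-fold lower in csf1rDM than in DsRed+ control cells (-3.48 ± 0.29, adjusted p = 0.000261). The other 3 genes of this group went the other way: adamtsl7 (log2 fold change 1.23), adamtsl3 (1.14) and adamtsl5 (0.97) were all higher in csf1rDM than in DsRed+ control cells, with adjusted p of 0.0145, 0.0145 and 0.0287. These calls were lost in 4 of 12 alternative analyses for adamtsl7, 2 of 13 for adamtsl3 and 9 of 12 for adamtsl5.

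Of the 5 TIMPs, which inhibit the proteases, 3 rose and 1 fell in DsRed+ control cells over DsRed- control cells, against 14.6% and 10.8% of all genes, although the increase of timp4.3 was lost in most alternative analyses. The gene timp2b had 23.1 and 43.7 CPM in csf1rDM libraries, 55.1 and 45.9 CPM in DsRed+ control libraries and 14.4 and 10.2 CPM in DsRed- control libraries. The DsRed- control values were the lowest, and timp2b rose over them by 2.17 ± 0.31 in DsRed+ control cells (adjusted p = 0.00313) and by 1.46 ± 0.31 in csf1rDM cells (adjusted p = 0.0426, lost in 9 of 13 alternative analyses). Its paralog timp2a had 132 and 105 CPM in csf1rDM libraries, 103 and 70.3 CPM in DsRed+ control libraries and 201 and 179 CPM in DsRed- control libraries. It fell by 0.94 ± 0.23 on the log2 scale in DsRed+ control cells over DsRed- control cells (adjusted p = 0.0243), so that the timp2 paralogs changed in opposite directions in this comparison.

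**Figure D4:**
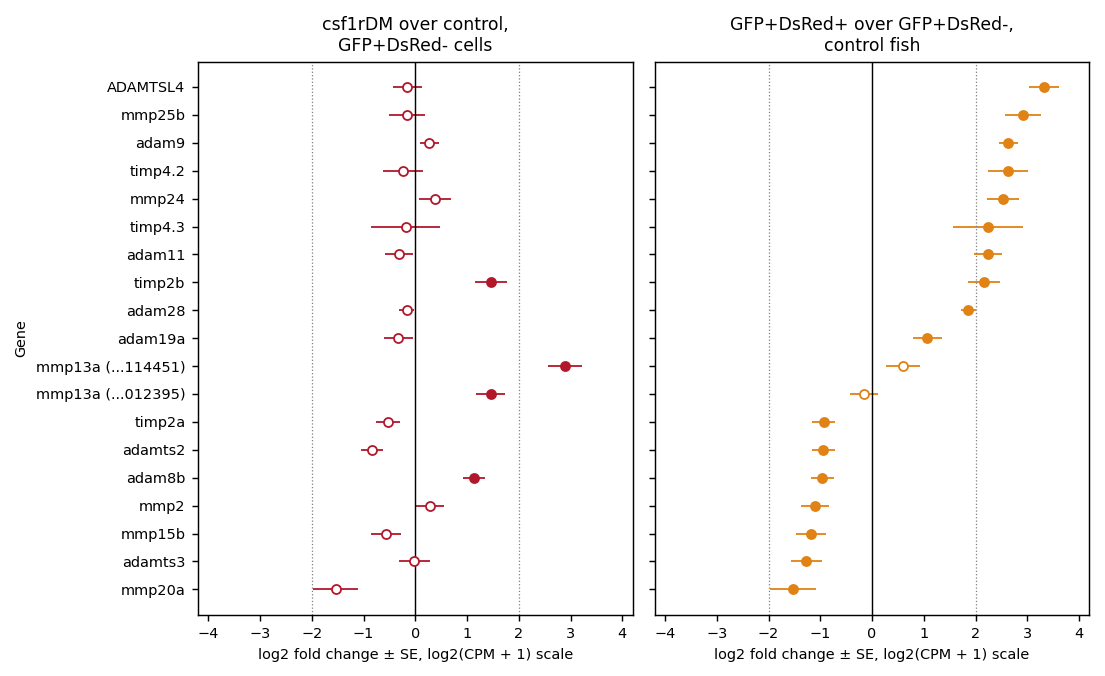
Log2 fold changes ± SE (x axis, log2(CPM + 1) scale) of the members called in either comparison (y axis), left for csf1rDM over control among GFP+DsRed- cells and right for GFP+DsRed+ over GFP+DsRed- cells of control fish. Filled points passed an adjusted p of 0.05, open points did not, and dotted lines mark log2 fold changes of -2 and 2. ADAMTSL4 has the largest value on the right (3.32) and mmp13a (ENSDARG00000114451) on the left (2.90).

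The 3 timp4 copies, which are neighbours on a chromosome in the RefSeq annotation, were used unequally. The gene timp4.1 had 12.6 and 34.0 CPM in csf1rDM libraries, 5.2 and 2.1 CPM in DsRed+ control libraries and 15.8 and 9.79 CPM in DsRed- control libraries. Its DsRed+ control values were the lowest, and it was higher in csf1rDM than in DsRed+ control cells by 2.27 ± 0.52 (adjusted p = 0.0162, lost without DsRed+ control replicate 3 or csf1rDM replicate 3, with adjusted p of up to 0.0894) but did not pass the test between the control groups (-1.43 ± 0.52, adjusted p = 0.0887). The gene timp4.2 had 0.40 and 2.0 CPM in csf1rDM libraries, 12.6 and 13.7 CPM in DsRed+ control libraries and 1.80 and 1.35 CPM in DsRed- control libraries, and rose by 2.63 ± 0.38 in DsRed+ control cells over DsRed- control cells (adjusted p = 0.00329). The gene timp4.3 had 4.15 and 21.6 CPM in csf1rDM libraries, 63.1 and 47.2 CPM in DsRed+ control libraries and 19.5 and 7.95 CPM in DsRed- control libraries. Its increase in DsRed+ control cells over DsRed- control cells lay at the threshold (2.24 ± 0.67, adjusted p = 0.0499) and was lost in 8 of 13 alternative analyses.

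As a share of the reads of all 3 copies, timp4.1 took 73.5% and 59.0% in csf1rDM libraries, 6.42% and 3.33% in DsRed+ control libraries and 42.6% and 51.3% in DsRed- control libraries. The share of timp4.3 was 24.1% and 37.5% in csf1rDM libraries, 77.9% and 74.9% in DsRed+ control libraries and 52.6% and 41.6% in DsRed- control libraries. These shares did not overlap between any of the 3 groups, whereas the summed timp4 level of csf1rDM libraries overlapped with that of DsRed- control libraries, with 17.2 and 57.7 CPM in csf1rDM libraries, 80.9 and 63.0 CPM in DsRed+ control libraries and 37.2 and 19.1 CPM in DsRed- control libraries. Reads may be assigned imperfectly between neighbouring copies, and the shares are given as a description.

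**Figure D5:**
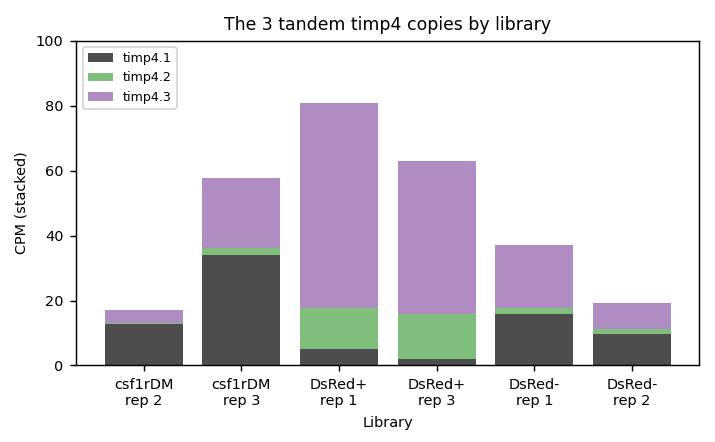
Stacked levels (y axis, CPM, starting at 0) of timp4.1, timp4.2 and timp4.3 in the 6 libraries (x axis). In both GFP+DsRed+ libraries timp4.3 makes up most of the bar (77.9% and 74.9%), whereas timp4.1 makes up most of it in the csf1rDM libraries (73.5% and 59.0%).

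Fibroblast and xanthophore markers were also lower in DsRed+ control cells than in DsRed- control cells. In the same comparison 0 keratinocyte markers were called. Their sums were nevertheless lower in both DsRed+ control libraries, at 9863 and 6023 CPM against 14022 and 19088 CPM. Of the other pigment cells, 2 iridophore markers and 1 melanophore marker were lower and 0 higher. Of the osteoblast and scale markers 2 were lower and 1 higher. Of 6 markers of metaphocytes, which the paper describes as macrophage-like cells derived from ectoderm, 5 were lower and 1 higher. Of the endothelial markers 1 was higher and 0 lower. Of 10 fibroblast markers, 5 were lower in DsRed+ control cells over DsRed- control cells, and 4 lower in csf1rDM over DsRed- control cells, with sums of 3445 and 1627 CPM in csf1rDM libraries, 5200 and 5127 CPM in DsRed+ control libraries and 11903 and 10207 CPM in DsRed- control libraries. The 8 xanthophore (yellow pigment cell) markers summed to 4.6 and 4.5 CPM in csf1rDM libraries, 50.03 and 55.7 CPM in DsRed+ control libraries and 561 and 474 CPM in DsRed- control libraries. The fibroblast sum was carried by col1a1a and col1a2, whereas fbln1 was at 47.5 and 46.5 CPM in csf1rDM libraries and 43.1 and 48.8 CPM in DsRed- control libraries. Relative to DsRed- control cells, the log2 fold changes in csf1rDM cells were 0.29 for mmp2, 1.13 for adam8b and -0.02 for adamts3. They were -0.57 for mmp15b, -1.54 for mmp20a, -0.84 for adamts2 and -0.53 for timp2a. The fibroblast and xanthophore sums were lowest in csf1rDM libraries. The part of fibroblasts, xanthophores and the other cell types named here in the lower values of adamts2, timp2a and the other members was not tested.

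No test was passed by 28 of the 58 members in any of the 3 comparisons, and their highest group means ranged between 1.2 and 298 CPM. Besides mmp9, mmp14a, adam10a and adam17a these were the MMP genes mmp11a, mmp11b, mmp13b, mmp17b, MMP23B, mmp23bb, mmp28 and mmp30, the ADAM genes adam10b, both adam12 genes, adam15, adam17b, adam22 and adam23a, and the ADAMTS genes adamts5, adamts6, adamts10, adamts12, adamts14, adamts15a, both adamts15b genes and adamts17. Of 18 members whose mean stayed under 5 CPM in every group 5 were called, and of 14 members with a mean of at least 50 CPM in a group 10 were. Shares of all genes at these levels, or called in none of the comparisons, were not computed. These counts are thus given as a description only. The gene adam12 (ENSDARG00000079068), a meltrin, came nearest to the threshold, with 0.80 and 2.0 CPM in csf1rDM libraries, 2.10 and 1.45 CPM in DsRed+ control libraries and 5.5 and 5.65 CPM in DsRed- control libraries. Its log2 fold changes over DsRed- control cells were -1.38 ± 0.33 in csf1rDM cells (adjusted p = 0.0549) and -1.09 ± 0.33 in DsRed+ control cells (adjusted p = 0.0504).

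A list of 76 genes that activate, restrain, clear or are cut by these proteases was read beside the family, of which 63 were tested. In DsRed+ control cells over DsRed- control cells 17 rose (27%, against 14.6% of all genes) and 13 fell (20.6%, against 10.8%), and all 7 that passed the fold threshold were higher (11.1%, against 4.98%). Among these were plaua, the urokinase that activates plasminogen and thereby MMPs, with 0 and 0 CPM in csf1rDM libraries, 142 and 85.5 CPM in DsRed+ control libraries and 1.25 and 1.65 CPM in DsRed- control libraries (log2 fold change in DsRed+ over DsRed- control cells 5.67 ± 0.32, adjusted p = 9.09e-05), and the proteoglycan gene vcanb (5.35 ± 0.48), a substrate of ADAMTS proteases. The other 5 were shed substrates, tnfa (4.08), il6r (3.80), csf1ra (3.75), tnfb (3.33) and mertka (3.31), several of which are known macrophage genes. Of these, csf1ra was also in the macrophage list. Outside the DsRed+ control libraries tnfa reached 1 CPM only in DsRed- control replicate 1, at 1.25 CPM. It was tested only through its DsRed+ control values, so its call is no independent result. The list was chosen with earlier results of these data known, and its counts and shares are given as a description. In csf1rDM cells plaua was at least 170-fold lower than in DsRed+ control cells.

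In csf1rDM cells over DsRed- control cells 1 gene of the list rose (1.59%, against 3.24% of all genes) and 4 fell (6.35%, against 3.27%). The increase was of the aggrecan gene acanb (1.31 ± 0.29, adjusted p = 0.0466, lost in 8 of 10 alternative analyses), which reached 1 CPM in csf1rDM libraries only, and the decreases were of csf1ra, which is mutated in these fish, of tspan5a, which encodes a tetraspanin partner of adam10 (-2.20 ± 0.24, adjusted p = 0.00631, lost without either DsRed- control library, with adjusted p of up to 0.113), and of the small proteoglycan genes bgna (-1.93 ± 0.19, adjusted p = 0.00425) and lum (-1.28 ± 0.22, adjusted p = 0.025, lost in 5 of 13 alternative analyses), of which lum is also a fibroblast marker. Between csf1rDM and DsRed+ control cells 16 were higher (25.4%, against 14.1% of all genes) and 19 lower (30.2%, against 18.3%), and the protease inhibitor gene tfpi2 was the only one beyond the fold threshold that was higher (2.40 ± 0.42, adjusted p = 0.00524). The lower genes included tnfa, which was tested only through its DsRed+ control values.

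Of the broader regulators, reck and furina passed no test. The membrane inhibitor reck had 21.5 and 30.6 CPM in csf1rDM libraries, 34.8 and 29.8 CPM in DsRed+ control libraries and 33.3 and 22.8 CPM in DsRed- control libraries, with overlapping groups. The proprotein convertase furina, which activates many MMPs and ADAMs, had 419 and 387 CPM in csf1rDM libraries, 309 and 299 CPM in DsRed+ control libraries and 348 and 443 CPM in DsRed- control libraries. Its paralog furinb was higher in DsRed+ control than in DsRed- control cells by 1.25 ± 0.21 (adjusted p = 0.00602). The MMP inducer bsg was higher in DsRed+ control than in DsRed- control cells by 0.75 ± 0.14 (adjusted p = 0.00888). This call was lost without any 1 of the 4 control libraries and with the replicate number as a block.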

How the data were processed

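GFP+ skin cells were sorted and their RNA sequenced by the authors, with STAR 2.5.4b, HTSeq 0.11.0, edgeR and the GRCz11 genome named in the submitters' processing notes. The deposited values are a normalized signal: gene counts that the authors scaled to nearly the same total in every library and rounded up (deposited totals 20008939 to 20013750). Between 99.893% and 99.956% of the values fell on whole multiples of the value of 1 read, within the rounding, which gave the estimated reads. Because the values are not raw counts, no count test was run. Values were divided by the library total to give CPM, genes with at least 1 CPM in 2 libraries were kept (20382 genes), and log2(CPM + 1) with TMM factors (0.922 to 1.128) was fitted for all 6 libraries with limma 3.58.1 in R 4.3.3 (empirical Bayes with intensity trend). P-values were adjusted by Benjamini-Hochberg over all genes of a comparison, and a call is an adjusted p below 0.05, with a log2 fold change beyond 2 for the fold threshold. A fold in linear terms is the ratio of mean CPM, and log2 fold changes understate the change of low genes. Fold bounds set a group at or under its floor to the level of 3 reads per library (mean floors 0.668 CPM in csf1rDM, 0.25 CPM in DsRed+ control and 0.276 CPM in DsRed- control libraries), and such floors cover counting error only. Values are given in every library for members beyond the fold threshold in any comparison or with a mean of at least 50 CPM in a group, the other called members by fold change, and the rest by count and range. From the list of partners and substrates, reck, bsg, furina, plaua and genes past a threshold were named, and 1 further gene is not reported here. The genes adam12 and furinb were chosen after their values were seen. The members and all lists were chosen with earlier results of these data known. Of the 68 matched identifiers 66 were found in a gene name table and 62 names in a RefSeq gene table of another assembly, which was used only for names and neighbours. Whether counting used strand is not given in the sources used here. Scripts were tested on simulated data.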

Additional observations from a re-analysis of the deposited data

How the results depend on the processing

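The spread rested on 2 libraries per group, and the csf1rDM libraries were the shallowest, which limits what can be said of members under 5 CPM. Each of 69 results for single members and partner genes was recomputed under 13 alternatives: 37 kept their call under every alternative that gave a value and 0 changed direction. For csf1rDM over DsRed- control cells, the count of 4 members became 2 without a filter on low values and 1 when only the 4 libraries compared were fitted, and over all genes the count of 1327 became 697 and 586 under the same settings. Leaving out 1 library at a time gave 1 to 7 members, and 1 to 3 in place of 1 beyond the fold threshold. For DsRed+ control over DsRed- control cells it gave 7 to 24 in place of 17 and 6 to 8 in place of 8 beyond the fold threshold, and for csf1rDM over DsRed+ control cells 12 to 22 in place of 25 and 5 to 12 in place of 12. A group left with 1 library was assumed to vary like the other groups. At the adjusted threshold, the count over all genes moved in the same direction as the member count whenever 1 library was left out. The cause of these changes was not tested, beyond the smaller number of libraries.

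Whether the replicate numbers in the labels pair the libraries is not known. Each pair of groups shared only 1 number, and deviations from the group means correlated across genes at -0.423 for number 1, 0.031 for number 2 and 0.0213 for number 3. With 2 libraries per group the deviations within a group mirror each other, so these correlations cannot decide whether libraries were paired. With the replicate number as a block, the fit called 0 members (0 also beyond the fold threshold) for csf1rDM over DsRed- control cells, 10 for DsRed+ control over DsRed- control cells and 17 for csf1rDM over DsRed+ control cells. Over all genes the block gave 67 calls in place of 1327 in the first comparison and 2245 in place of 5180 in the second. In the third it gave 3756 in place of 6610. The planned edgeR and DESeq2 fits were not run, because the deposited values are not raw counts.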
